A study of Mus musculus with 2 samples.

Results

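The clustered protocadherin genes lie side by side on mouse chromosome 18 in alpha, beta and gamma clusters. Their methylation was taken as every listed CpG from 1 kb upstream of the start to the end of each gene whose GENCODE M21 symbol begins with Pcdha, Pcdhb or Pcdhg. This rule gave 58 genes, of which 14 were alpha, 22 were beta and 22 were gamma, and 957 of the 1782730 CpGs in the table. On GRCm38 the genes of the alpha cluster span chr18:36930184-37187661, those of the beta cluster chr18:37264938-37524479 and those of the gamma cluster chr18:37661793-37841873, all on the forward strand. The annotation types 57 of the genes as protein coding and Pcdhgb8 as a polymorphic pseudogene. Each strand of a CpG is listed as its own cytosine, and "CpG" here means such a cytosine, with 483 on the forward and 474 on the reverse strand.

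The cells were mouse embryonic stem cells (mESCs) of the Xmas line, a female C57/Bl6 line that carries a fluorescent reporter on each X chromosome. All cells were grown by the modified culture method, for 7 passages according to the labels (the study's text gives a larger number), and then separated by fluorescence-activated sorting into cells that kept both X chromosomes (XX) and cells that had lost an X chromosome (XO). DNA methylation was measured by reduced representation bisulfite sequencing (RRBS), which reads CpG-rich fragments after unmethylated cytosines are converted, and the question was how methylation differs with X chromosome number. There was 1 library per karyotype, so karyotype and library cannot be told apart and no p-values are given. The values are percentages without read counts, so the depth behind each is unknown. A CpG at 0% or 100% may rest on few reads. Of 7 pluripotency genes, 4 (Sox2, Zfp42, Klf4 and Tfcp2l1) had at least 5 CpGs in the 1 kb promoter. None of these promoters exceeded 22.6% in XX or 22.3% in XO. Autosomal protein-coding promoters with at least 5 CpGs had medians of 7.00% in XX and 8.62% in XO. Low levels are thus common among promoters and cannot identify the cell type. The promoters of Pou5f1 and Nanog held no listed CpG. The label of the cells was thus not checked by these values.

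Clustered protocadherins are cadherin-family adhesion proteins of the cell surface, best known from neurons, where each cell uses a small set of them as an identity code. In the alpha and gamma clusters each gene has its own promoter and a large variable first exon, which encodes the outer part of the protein and is spliced to constant exons shared by the whole cluster. Beta genes are made of essentially a single coding exon. In neurons CTCF and cohesin bind the promoters and first exons that are used, and DNA methylation there is known to go with a gene being silent.

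Over all 957 CpGs the mean methylation level was 20.4% in XX and 28.7% in XO, a difference (XX minus XO) of -8.34 percentage points. The level was lower in XX at 602 CpGs, higher at 294 and equal at 61. CpGs at least 20 points lower in XX made up 23.0% of the clusters, against a background of 22.5% of all CpGs in the table. CpGs at least 20 points higher made up 5.96%, against a background of 3.68%. The other autosomal CpGs had a mean of 17.6% in XX and 25.7% in XO (-8.11 points), and the rest of chromosome 18 had 18% and 26.8% (-8.76 points). The fall over the clusters was thus close to that of the autosomes as a whole.

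The levels of the clusters lay more often in the middle of the scale than those of other autosomal CpGs. In XO, 44.5% of their CpGs lay between 10% and 50% methylated, against 29.7% of other autosomal CpGs, and 31.6% lay under 10%, against 46.6%. The share at 50% or more was nearly the same, 23.9% and 23.7%. At matched XO levels, in steps of 10 points, the mean XX level of other autosomal CpGs would be 19.2% for the clusters' mix of levels, and the clusters had 20.4%. In the lowest step, under 10% in XO, the mean XX level was 6.51% in the clusters and 3.83% elsewhere. The mean XO level in that step was also higher in the clusters, 2.94% against 1.79%. XO levels are thus matched only to within a step, here and where single clusters are compared below. These are descriptions without a test.

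**Figure D1:**
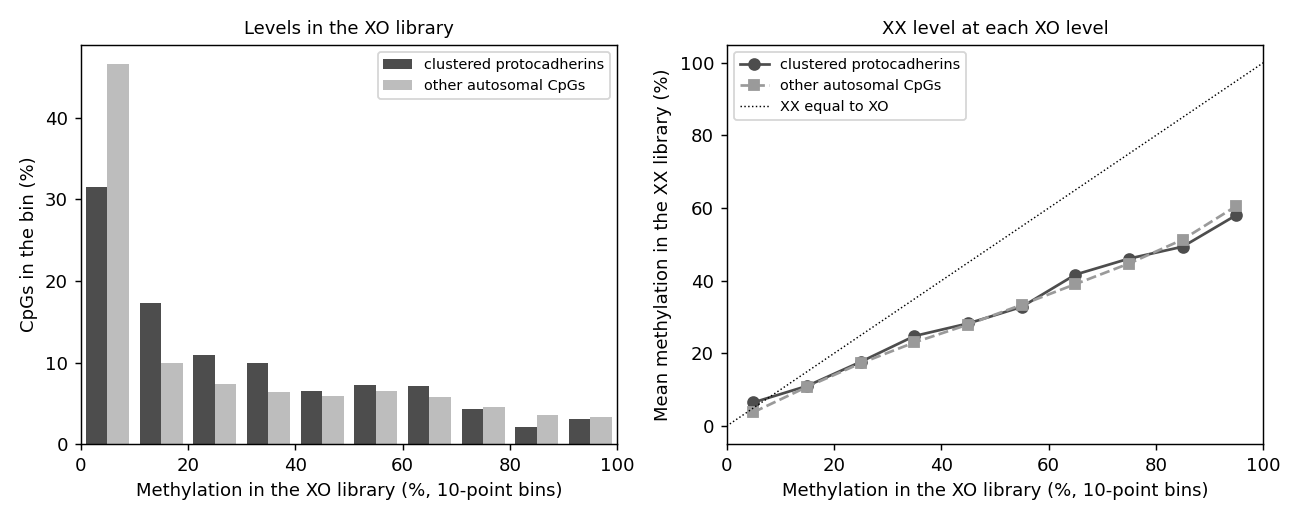
The left panel plots the share of CpGs (%) in each 10-point bin of XO methylation (%), for the clustered protocadherins and for other autosomal CpGs. The right panel plots the mean XX methylation (%) in the same bins, with a dotted line where XX equals XO. The clusters have fewer CpGs under 10% (31.6% against 46.6%), and both lines run close together below the dotted line from the second bin on.

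Over all CpGs of a cluster, the alpha cluster had the largest fall. Its 225 CpGs had a mean of 21.4% in XX and 34.3% in XO (-12.8 points), and 35.6% of them were at least 20 points lower in XX. The beta cluster had 123 CpGs at 13.4% in XX and 23.3% in XO (-9.90 points), with 17.9% at least 20 points lower. The gamma cluster had 609 CpGs at 21.4% in XX and 27.7% in XO (-6.36 points), with 19.4% at least 20 points lower. Both clusters with a larger mean fall than the autosomes were below the XX level of other autosomal CpGs at matched XO levels, alpha by 0.81 and beta by 2.58 points, and gamma was 2.72 points above it. The 3 clusters therefore differed in the size of the fall but not in its direction. The order was the same on the forward strand alone (-12.9, -9.74 and -6.23 points) and on the reverse strand alone (-12.7, -10.1 and -6.50 points). On CpGs whose 31 surrounding bases, after conversion, occur at a single place in the genome, alpha (-12.6 points) and beta (-12 points) were nearly equal. In first exons alone, alpha (-10.5 points) and beta (-10.7 points) were also nearly equal by means, and gamma had -5.41 points. By medians the first exons had -11.3 points in alpha, -6.88 in beta and -6.02 in gamma. Over their CpGs of single-place sequence the means differed by -11.6, -13.5 and -5.60 points. The alpha cluster also held 48 CpGs of introns and spacers (-19.0 points). Alpha and gamma genes extend to the end of their cluster, so the rule takes in the stretches between their variable exons. Beta genes end with their single exon, so most of the stretches between them lie outside the rule and were not examined. Over promoters and first exons only, alpha had -11.0, beta -9.90 and gamma -5.94 points.

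By part of the gene, the first exons held 817 of the 957 CpGs, the promoters 63, the constant exons 7 and the remaining introns and spacers 70. First exons had 18.9% in XX and 26.0% in XO (-7.14 points), and promoters 21.5% and 33.5% (-12 points). The 70 CpGs outside these parts were the more methylated ones, at 36.8% in XX and 55.5% in XO (-18.7 points). First exons of the clusters stood above those of genes in general. Over 332510 CpGs in first exons of autosomal protein-coding genes, XX had a mean of 6.96% and XO of 8.30% (-1.33 points). The later exons of those genes were closer to the clusters, with 20.6% in XX and 31.3% in XO.

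Most related genes outside the clusters had lower first exons. Of 12 non-clustered protocadherins 6 had at least 5 CpGs there, and over all 555 listed CpGs the mean was 6.32% in XX, against 10.7% in XO. Pcdh8, with 201 of these CpGs, had 6.58% and 13.1%. Pcdh12 was the exception, at 26.0% in XX and 59.1% in XO over 22 CpGs (-33.1 points), an XO level above that of every clustered first exon with at least 5 CpGs. In the Hox genes, a family of developmental regulators also arranged in clusters, 1426 CpGs of first exons had 6.53% and 7.74%. Over CpGs, both families lay below the 18.9% and 26.0% of the clustered genes.

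Of the 58 genes, 42 had a listed CpG in the first exon and 36 had at least 5. Those without any were Pcdha6, Pcdha7, Pcdha9, both genes named Pcdha11, and the 11 beta genes Pcdhb4 to Pcdhb11, Pcdhb14, Pcdhb19 and Pcdhb21. RRBS reached the clusters unequally, with 12.2% of the CpG cytosines in gamma first exons listed, 5.05% of those in alpha and 3.14% of those in beta. The median first exon held 7.5 CCGG sites, where the RRBS enzyme MspI cuts, in gamma, 5 in alpha and 4 in beta.

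Among the 36 genes with at least 5 CpGs, the first exon was lower in XX in 33 and higher in 3. Over all autosomal protein-coding genes with at least 5 CpGs in the first exon, 59% were lower in XX. The first exon was at least 20 points lower in 3 of the 36, where the background is 3.46%, and in none was it 20 points higher. The XO level was at least 20% in 24 of the 36, against 15.7% of the 9993 first exons of the background. The median difference was -6.63 points, against -0.81 points over the background. Among first exons at 20% or more in XO the order turned, with a median difference of -7.95 points in the 24 clustered genes and -10.1 points in the 1565 of the background. A fall of at least 20 points was found in 3 of these 24 and in 346 of these 1565, so the share was lower in the clusters.

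**Figure D2:**
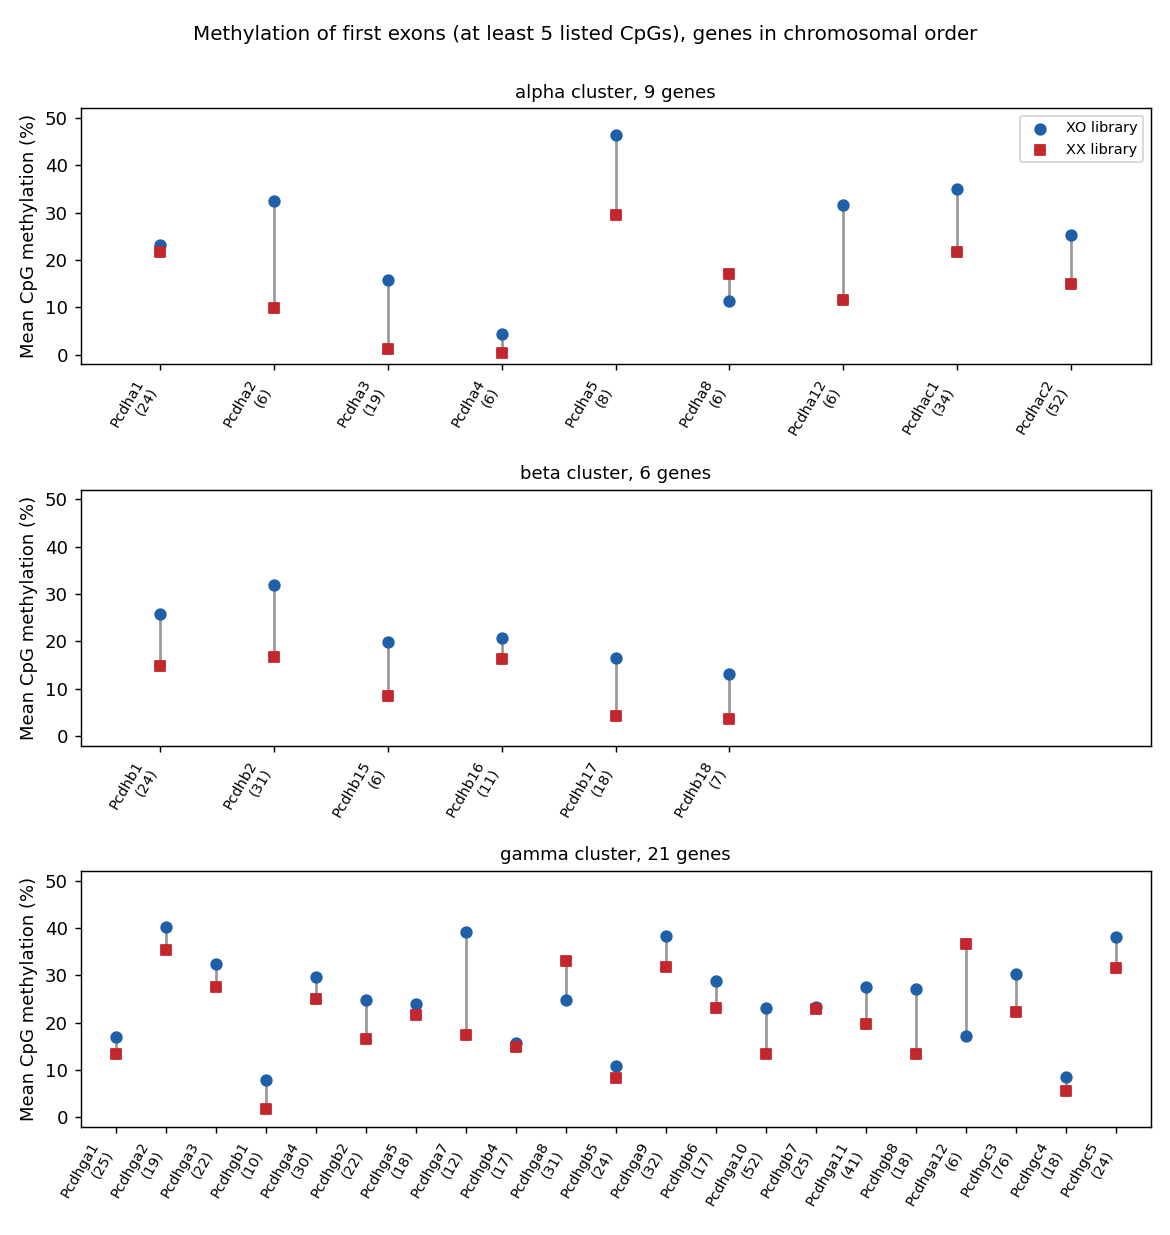
Mean methylation (%) of the first exon is plotted for XX (squares) and XO (circles) in the 36 genes with at least 5 CpGs, in chromosomal order in each cluster, with the number of CpGs in parentheses. Vertical lines join both libraries of a gene. XX lies below XO in 33 genes, and above it in Pcdha8, Pcdhga8 and Pcdhga12.

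In the alpha cluster 8 of 9 first exons were lower in XX. The highest XO level was in Pcdha5 (chr18:36960440-36962785), whose 8 CpGs had 29.5% in XX and 46.3% in XO and were all lower in XX. Pcdha2 (chr18:36939224-36941705) had the largest fall, from 32.4% in XO to 9.80% in XX over 6 CpGs, all lower, although only 2 of the 6 had a unique surrounding sequence. Pcdha12 (chr18:37020149-37022623) had 31.6% in XO and 11.6% in XX. Its fall rested on its reverse-strand CpGs, with -30.0 points over 4 of them and -0.27 points over 2 on the forward strand. At a pair of these, XO was at 92.3% and 84.6% and XX at 28.6% and 21.4%.

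The lower levels of the cluster were found in Pcdha3, Pcdha4 and Pcdha8. Pcdha4 (chr18:36952675-36954367) had 0.41% in XX and 4.35% in XO over 6 CpGs. Pcdha3 (chr18:36946105-36948576) had 1.12% in XX and 15.8% in XO over 19 CpGs, and 16 of these were lower in XX. Within it, 4 CpGs from 474 to 544 bases after the start were at 0% in XX and at 38.6% in XO. Pcdha8 (chr18:36992371-36994848) was the alpha gene with the higher mean in XX, 17.1% against 11.3% in XO. Of its 6 CpGs 3 were higher and 3 lower, only 2 were unique, and these 2 had a difference of -6.77 points, so its direction is uncertain. Pcdha1, the first variable exon of the cluster, was nearly level at 21.6% in XX and 23.1% in XO over 24 CpGs, with a forward strand at +10.6 points and a reverse strand at -10.2 points.

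The C-type genes Pcdhac1 and Pcdhac2 close the alpha cluster and Pcdhgc3, Pcdhgc4 and Pcdhgc5 close the gamma cluster. They differ from the other variable genes in that neurons are known to express them in a more uniform way than the stochastically chosen ones. Together their first exons had 19.8% in XX and 28.7% in XO over 204 CpGs (-8.88 points), beside -9.25 points over 75 CpGs of the other alpha genes, and -4.96 and -5.05 points over the A-type and B-type gamma genes. The pooled value mixes clusters. Pcdhac1 and Pcdhac2 had -13.4 and -10.3 points, and Pcdhgc3, Pcdhgc4 and Pcdhgc5 had -7.97, -3.00 and -6.61 points. Pcdhac1 (chr18:37090013-37092571) had 21.6% in XX and 35.0% in XO over 34 CpGs, with -3.03 points over 18 forward and -25.1 points over 16 reverse CpGs. Over the 6 of these that form CpGs listed on both strands the difference was -0.12 points. Pcdhac2 (chr18:37143503-37146530) had 14.8% in XX and 25.2% in XO over 52 CpGs. Pcdhgc3 (chr18:37806410-37808977), the first exon with most listed CpGs (76), had 22.2% and 30.2%, with -17.8 points on the forward strand and +1.33 on the reverse. Pcdhgc5 (chr18:37819513-37822134) had 31.5% and 38.1% over 24 CpGs. Pcdhgc4 (chr18:37815079-37817983) stood lower, at 5.50% and 8.49% over 18 CpGs. All 5 were lower in XX, and the XO levels of the 5 ranged from 8.49% to 38.1%.

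In the beta cluster all 6 genes with at least 5 CpGs were lower in XX. Pcdhb2 (chr18:37294812-37297624) had the highest XO level and the largest fall, with 16.6% in XX and 32.0% in XO over 31 CpGs, and its strands gave close values of -16.3 and -14.7 points. Pcdhb1 (chr18:37264938-37267525), the first gene of the cluster, had 14.8% and 25.8% over 24 CpGs. Pcdhb17 (chr18:37484795-37489454) had 4.26% and 16.5% over 18 CpGs. In each of these 3 genes the difference exceeded 10 points. Pcdhb15 (chr18:37473540-37476340) had 8.39% in XX and 19.9% in XO over 6 CpGs. Pcdhb18 (chr18:37489465-37494505) was the lowest, at 3.58% and 13.0% over 7 CpGs. Pcdhb16 (chr18:37477814-37483038) had the smallest fall, with 16.3% and 20.6% over 11 CpGs. The last gene, Pcdhb22, had 4 CpGs at a mean of 1.67% in both libraries, none with a unique surrounding sequence. Pcdhb3, Pcdhb12, Pcdhb13 and Pcdhb20 had 2 to 4 CpGs each, with differences from -8.67 to +3.78 points.

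In the gamma cluster 19 of 21 first exons were lower in XX, and the median difference over the 21 genes was -4.94 points. The A-type genes had 23.7% in XX and 28.6% in XO over 292 CpGs, and the B-type genes 15.3% and 20.4% over 133 CpGs. The differences of both types were close (-4.96 and -5.05 points) while the B-type levels were lower in each library.

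Pcdhga2 (chr18:37668953-37671525) had the highest XO level of the gamma genes with at least 5 CpGs, with 35.3% in XX and 40.2% in XO. Its strands were opposite, with +18.6 points over 7 forward and -18.7 points over 12 reverse CpGs. Pcdhga7 (chr18:37714764-37717374) followed at 39.2% in XO and had the largest fall of the cluster, to 17.5% in XX over 12 CpGs, of which 10 were lower. Pcdhga9 (chr18:37736936-37739543) had 31.7% and 38.3% over 32 CpGs, also with opposite strands (+11.5 and -22.7 points). The next largest falls were in Pcdhgb8 (chr18:37761879-37764299), from 27.1% to 13.4% over 18 CpGs, and in Pcdhga10 (chr18:37746993-37749605), from 23.1% to 13.3% over 52 CpGs. In both genes the strands gave the same direction, with -16.1 and -11.3 points in Pcdhgb8 and -10.3 and -9.02 points in Pcdhga10.

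The gamma first exons with the lowest XO levels were those of Pcdhgb1 (chr18:37680233-37682839), with 1.72% in XX and 7.84% in XO over 10 CpGs but -0.25 points over its 5 unique ones, Pcdhgc4, and Pcdhgb5 (chr18:37731009-37733559), with 8.33% and 10.8% over 24 CpGs. Pcdhga1, the first gene of the cluster, had 13.3% and 17.0% over 25 CpGs, with a forward strand at +6.93 points and a reverse strand at -15.1 points. Pcdhgb7 and Pcdhgb4 were nearly level, with 22.9% and 23.4% over 25 CpGs and 15% and 15.8% over 17 CpGs, and over unique CpGs both turned, to +0.08 and +0.67 points. The differences of Pcdhga3, Pcdhga4, Pcdhga5, Pcdhga11, Pcdhgb2 and Pcdhgb6 lay between -8.25 and -2.26 points. Pcdhga6 had only 4 CpGs, at 50% and 61.3%.

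A pair of gamma genes had the higher mean in XX. Pcdhga12 (chr18:37765580-37768540) had 36.7% in XX and 17.2% in XO over 6 CpGs, all 6 of them higher in XX, just short of 20 points. These CpGs were all on the reverse strand, from 1332 to 1381 bases after the start, and none was listed on the forward strand. They may therefore rest on the same reads. Pcdhga8 (chr18:37725706-37728316) had 33.1% in XX and 24.9% in XO over 31 CpGs, of which 21 were higher. Its strands both gave a rise, of 9.47 and 6.22 points, whereas its medians differed by -0.63 points. It was the only gene with at least 3 CpGs on each strand in which both strands gave a rise.

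Across the 36 genes the levels in both libraries rose together, with a Pearson correlation of 0.66 and a Spearman correlation of 0.64 over genes. Genes of a library share its depth and are not independent replicates. The XO level had little relation to the ratio of observed to expected CpGs in the exon (Pearson -0.17, Spearman -0.23, 36 genes), although that ratio had a median of 0.66 in alpha, 0.55 in gamma and 0.39 in beta.

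Promoters were thinly read. In 28 of the 58 genes the 1 kb upstream of the start holds no CCGG site, 12 genes had a listed CpG there and 4 had at least 5. All 4 were lower in XX and none by 20 points. Of all autosomal protein-coding promoters with at least 5 CpGs, 60.4% were lower and 4.07% were lower by at least 20 points. Pcdhac1 had 4.93% in XX and 23.1% in XO over 12 CpGs from -120 to -48 bases of the start, with -27.2 points over 8 forward and 0 points over 4 reverse CpGs. Of these 4 promoters that of Pcdhga10 had the highest level, with 42.8% in XX and 60.5% in XO over 12 CpGs. Its difference of -17.7 points was -6.43 points over the 6 unique ones. Pcdhgc3 had 6.72% and 13.0% over 11 CpGs, and Pcdhga11 5.51% and 10.5% over 9 CpGs. In Pcdhac1, Pcdhgc3 and Pcdhga11 the promoter was thus less methylated than the first exon in each library, and in Pcdhga10 it was more methylated.

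The other promoters held 1 to 4 CpGs each. In Pcdhgb4 4 forward CpGs were at 100% in XO and at a mean of 67.9% in XX. In Pcdhb5 4 CpGs had 58.6% in XX and 63.3% in XO, and in Pcdhb13 4 CpGs had 4.25% and 3.23%. The single CpG in the promoter of Pcdhgb8 was at 7.69% in XX and at 69.2% in XO. In gamma the XO levels of promoters thus ran from 0% over 1 CpG (Pcdhga9) to 100% over 4 CpGs (Pcdhgb4), both below the minimum of 5 CpGs. The 3 gamma promoters with at least 5 CpGs lay between 10.5% and 60.5% in XO, while alpha had 1 such promoter and beta had none.

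The size of the fall varied with distance from the start. In the first 500 bases after the start, 288 CpGs had 21.3% in XX and 24.4% in XO, a difference of -3.14 points. In the windows beyond, the differences were -9.90, -10.2, -8.17 and -7.64 points. The gamma cluster contributed 204 of the 288 CpGs, with 22.2% in XX and 23.9% in XO (-1.70 points). In beta the first 500 bases had -2.70 points over 22 CpGs, whereas the next 500 bases had 27.7% and 50.8% (-23.1 points) over 12 CpGs. In alpha the first 500 bases already had -8.05 points over 62 CpGs. The window that follows the start thus held the smallest fall downstream of the start in each of the 3 clusters.

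**Figure D3:**
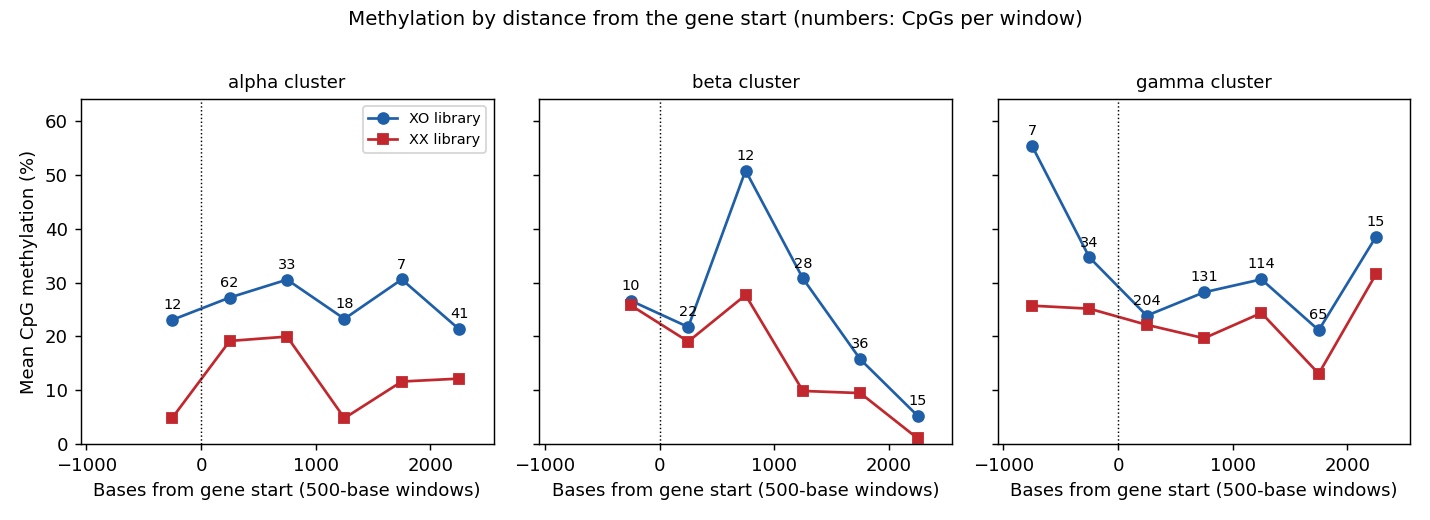
Mean methylation (%) in XX (squares) and XO (circles) is plotted against the distance from the gene start in windows of 500 bases, with a panel per cluster and the number of CpGs at each point. In the gamma cluster the lines nearly meet in the first window after the start (22.2% and 23.9%), and in the beta cluster they are far apart from 500 to 1500 bases.

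CpGs at least 20 points higher in XX numbered 57, and all of them lay in first exons. Of these, 46 were in gamma, 10 in alpha and 1 in beta, and they spread over 18 genes, with at most 7 in any gene (Pcdhgc3). They were 7.55% of gamma CpGs, 4.44% of alpha and 0.81% of beta, against the background of 3.68%. They were no more frequent in the first 500 bases of the gene (6.97% of CpGs in first exons) than further on (6.98%). Surrounding sequence was unique for 50 of the 57. The largest rises were at 3 forward CpGs of Pcdhga9, which had 52.4%, 57.1% and 57.1% in XX and 5%, 5% and 0% in XO. The largest fall at a single CpG was in Pcdhgc3, from 90.9% in XO to 0% in XX.

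Single exons held stretches that differed in level and in XX minus XO. Neighbouring CpGs of a strand can lie on the same reads, so a stretch may count the same molecules more than once. In the Pcdhac1 promoter, for example, the forward CpGs at -64, -61 and -48 bases each had 15.4% in XX and 69.2% in XO. CpGs no more than 100 bases apart were joined into 132 runs, of which 73 had at least 5 CpGs. Of these, 59 were lower in XX, 14 at least 20 points lower, and 14 were higher, 1 of them by at least 20 points. That run was in Pcdhga4, from 215 to 281 bases after the start, where 6 reverse CpGs had 67.7% in XX and 47.6% in XO. No share for runs elsewhere on the autosomes is given, so the counts of runs stand without a background. The largest fall among the runs was in Pcdhga2, from 203 to 259 bases, with 31.4% in XX and 72.0% in XO over 5 CpGs. In the same gene the 8 CpGs from -9 to 95 bases had 24% in XX and 14.1% in XO. The fall (-40.6 points) was on reverse CpGs alone, and no forward CpG was listed there. The rise was on 5 forward CpGs (+17.6 points), while the 3 reverse CpGs beside them gave -3.03 points. Strand and position thus cannot be told apart in this contrast.

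The C-type exons also held stretches of different levels. In Pcdhac2 the 27 CpGs from 301 to 609 bases after the start had 18.6% in XX and 15.4% in XO. The next 6, from 914 to 975 bases and all on the forward strand, had 28.7% and 67.9%, and the last 19, from 1212 to 1545 bases, had 5.06% and 25.5%. In Pcdhac1 the 27 CpGs from 84 to 524 bases had 21.1% and 32.7%, where 13 forward CpGs gave +5.36 points and 14 reverse CpGs -27.4 points. The 7 from 1970 to 2164 bases had 23.5% and 43.8%, with both strands lower in XX. The fall in Pcdhac2 thus lay beyond the stretch nearest to the start, and in Pcdhac1 the stretch nearest to the start fell on the reverse strand only.

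In Pcdhgc3 the 29 CpGs around the start, from -85 to 200 bases, were low in both libraries, at 4.09% in XX and 8.81% in XO. The 33 CpGs from 322 to 669 bases had 33.6% and 50.6%, with a forward strand at -32.0 points and a reverse strand at +1.09 points. The 16 CpGs from 943 to 1119 bases had 18% and 10.9%, made up of -4.71 points on 9 forward and +22.4 points on 7 reverse CpGs. In Pcdhgc5 the 7 CpGs from 1944 to 2056 bases had 29.4% and 52.8%. In Pcdhb2 the 6 CpGs from -20 to 60 bases had 2.88% and 0.54%, and the 6 from 1007 to 1064 bases had 26.0% and 58.8%. In Pcdhga9 the 7 CpGs from 206 to 288 bases had 54.0% and 36.6%, made up of +52.2 points on 3 forward and -8.76 points on 4 reverse CpGs.

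**Figure D4:**
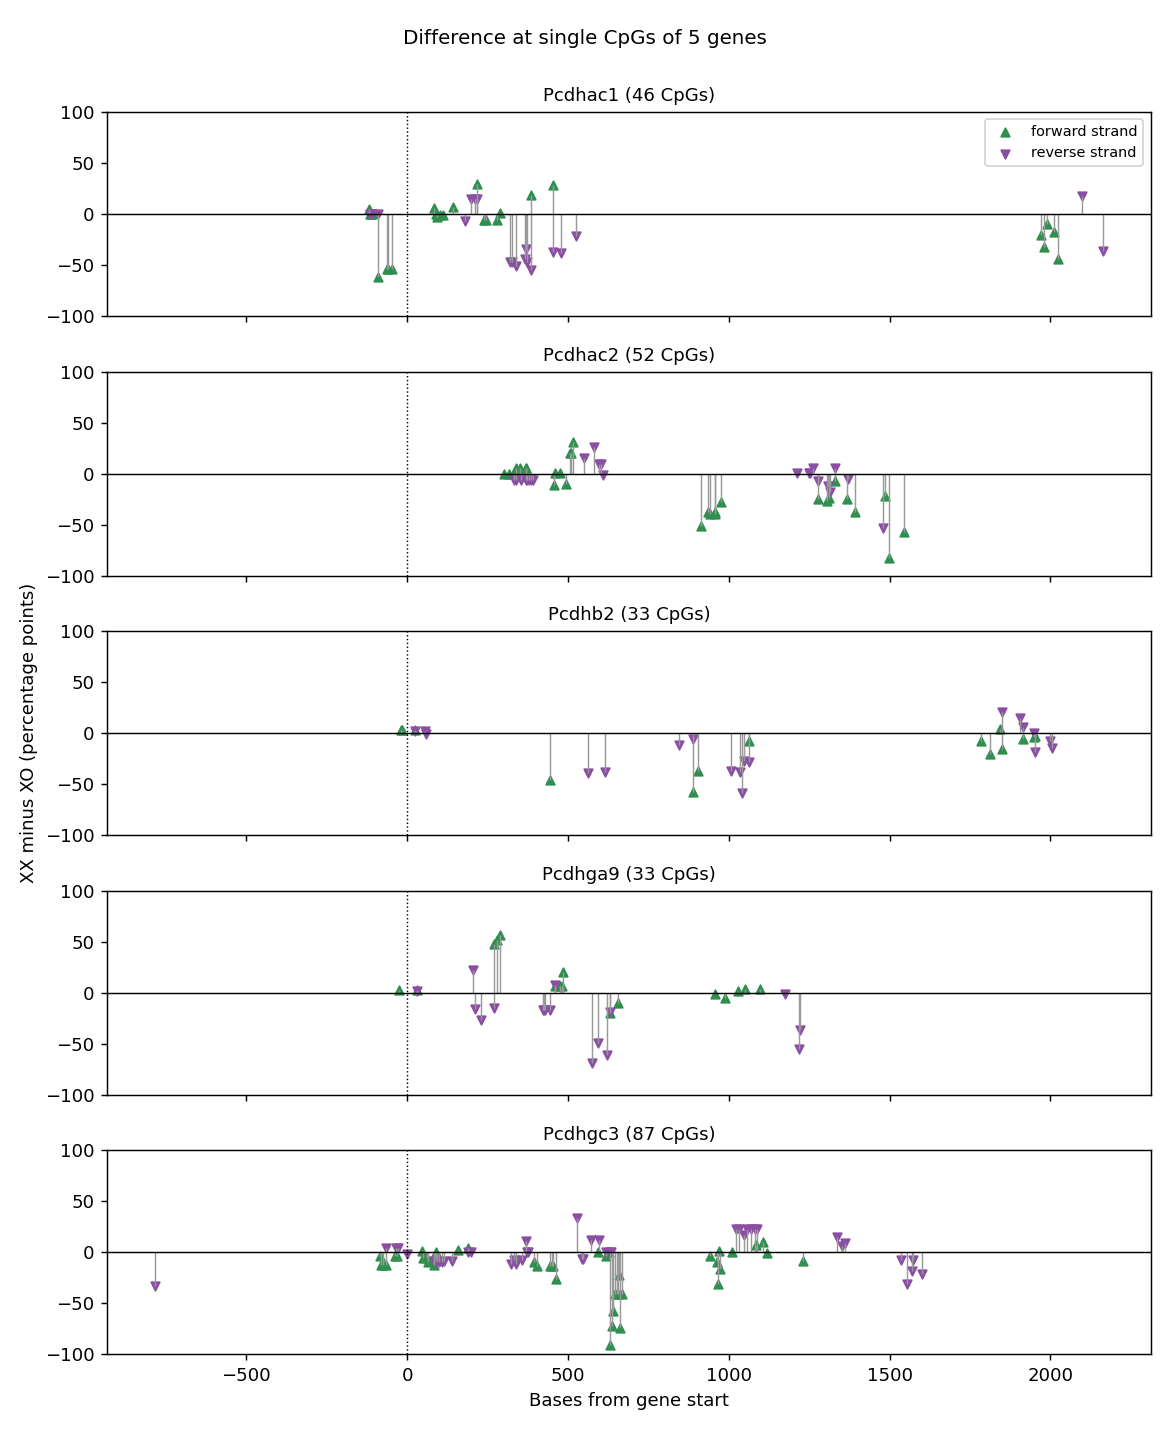
The difference XX minus XO (percentage points) at each CpG of the promoter and first exon is plotted against the distance in bases from the gene start for Pcdhac1, Pcdhac2, Pcdhb2, Pcdhga9 and Pcdhgc3, with upward triangles for the forward and downward triangles for the reverse strand. Rises and falls come in short stretches of neighbouring CpGs, which may rest on the same reads. At several places the strands differ, as from 206 to 288 bases in Pcdhga9.

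Both strands of a CpG usually carry the same mark in the cell, so the gap between their values is a rough guide to the error of a single value. The gap also holds any true difference between strands, which could not be told apart from error here. For 155 CpGs of the clusters both strands were listed. In size, forward and reverse values lay a median of 5.88 points apart in XX and 9.55 points apart in XO, with an SD of the gap of 19.1 and 24.4 points. The mean XX minus XO was close on both strands (-6.47 and -6.75 points), while the differences at single CpGs correlated weakly between strands (Pearson 0.21, 155 CpGs, which share both libraries). Of 31 genes with at least 3 CpGs on each strand of the first exon, both strands were lower in XX in 19, both were higher in 1, and the strands were opposite in 10 (Pcdha1, Pcdhga1, Pcdhga2, Pcdhga3, Pcdhga5, Pcdhga9, Pcdhgb4, Pcdhgb5, Pcdhgb7 and Pcdhgc3). In the last of them, Pcdha4, the forward strand had no difference. The median gap between the strands' differences was 10.1 points, and in 20 of the 31 genes the gap exceeded the size of the gene's own difference. Of the 817 CpGs of first exons only 276 have their partner on the other strand listed. The strands of a gene were thus mostly read at different positions, and these gaps also hold differences between positions.

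The constant exons held 7 listed CpGs. In alpha the third constant exon had 4 CpGs at 10.4% in XX and 27.2% in XO, and in gamma the first constant exon had 3 at 38.7% and 42.2%. The other 4 constant exons had none listed, so nothing can be said of them here.

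The CpGs of introns and spacers, joined where no more than 300 bases apart, formed 17 runs, 8 in alpha and 9 in gamma. The alpha runs were more methylated than the promoters, first exons or constant exons of any of the 3 clusters, at 46.0% in XX and 65.0% in XO over 48 CpGs, of which 20 lay in repeats. The highest XO level was in a run of 10 CpGs between Pcdha7 and Pcdha8 (chr18:36980330-36980458), with 55.1% in XX and 86.7% in XO. A run of 12 CpGs at chr18:36954786-36954976 had 37.5% and 41.6% and lies within a longer first exon of another Pcdha4 transcript. The mean of each of the 17 runs was lower in XX. Some of these runs held only 1 or 2 CpGs, and no share for runs elsewhere on the autosomes is given beside this count. When joined at 100 bases instead, 2 gamma CpGs stood alone with values 15.3 and 5.82 points higher in XX. The 22 CpGs of the gamma runs had 17.0% in XX and 34.9% in XO.

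The genes that act on the clusters or on DNA methylation were described by their promoters. Of 16 such genes 12 had at least 5 CpGs, of which 8 were lower in XX and 4 higher, none by 20 points, with a median of -3.25 points, against 60.4% lower among all promoters. The promoter of Ctcf, the insulator protein that binds protocadherin promoters, was level at 4.33% in XX and 4.49% in XO over 86 CpGs. The cohesin genes Rad21 and Smc3 had 6.32% and 13.1%, and 2.15% and 9.09%. Smchd1, a chromatin protein known to repress the protocadherin clusters, had the largest fall of the list, with 5.10% in XX and 15.2% in XO over 35 CpGs. Dnmt3b, a de novo DNA methyltransferase, had 3.62% in XX and 0% in XO over 15 CpGs, and Uhrf1, which is needed to maintain methylation, had 0.99% and 5.40% over 10. None of the 12 promoters exceeded 21.8% in XX or 18.7% in XO, the values of X-linked Stag2. The 8 non-clustered protocadherin promoters with at least 5 CpGs had a median difference of -1.88 points, with 6 lower and 1 higher in XX.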

How the data were processed

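DNA of XX and XO Xmas mESCs, 1 library each, was prepared for RRBS with the NuGEN Ovation Methylseq kit. The deposited table lists cytosines of CpGs with the methylated share of their reads in either library, as a percent computed by the authors. The authors' submission notes name bcl2fastq, Bismark and the build mm10, without versions. A coverage minimum is not given in the sources used here. None of the 1782730 rows lacked a value, 0 further columns of sample values were present, and no row was removed.

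Genes came from GENCODE M21 on GRCm38. The promoter was 1 kb upstream of the start. The first exon was exon 1 of the protein-coding transcript with most exons, and for beta genes of the single-exon transcript. Constant exons were later exons shared by at least 3 genes of a cluster. A CpG was counted once, in the first exon before the constant exon before the promoter. Values are means over CpGs, and a gene part was described from 5 CpGs. A surrounding sequence was called unique when the 31 bases centred on the CpG, with C read as T, occurred once in the genome. The computation was tested on simulated data (Python 3.11.15, pandas 2.3.3, numpy 2.4.6, numba 0.67.0, figures with matplotlib 3.10.9).

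The members, the comparison families and the gene lists were chosen with earlier results of these data known. Named in each cluster and part were the 3 genes with the highest XO level, the 3 with the lowest, the 3 with the largest fall, every gene higher in XX, all C-type genes and the first and last variable exons. Other genes and runs were named after their values were seen. No test was possible, since there were no replicates and no counts.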

Additional observations from a re-analysis of the deposited data

How the results depend on the processing

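A value was held to be stable where it kept its sign and stayed within 1.5-fold of the reported one, since no replicates give a spread. The fall over all CpGs (-8.34 points) and over the alpha, beta and gamma clusters met this under each alternative run: without CpGs at exactly 0% or 100% in both libraries, by medians, on each strand, on both strands averaged, with each gene region counted once, and without copied sequence or repeats. Leaving out any single gene, added after the data were seen, moved the overall fall between -8.89 (without Pcdhga8) and -8.02 points (without Pcdhac1). Of 85 alternative values of the main results 73 were stable. The promoter fall (-12 points) was -3.49 points by medians, -4.13 on the reverse strand, -3.27 on both strands averaged and -6.46 within 1 kb either side of the start. The first-exon fall (-7.14 points) was -3.02 points in the first 500 bases, and was stable with the 2-exon transcripts of 4 beta genes (-6.83) and with the longer Pcdha4 exon (-7.10), both also added later. In the constant exons (-11.1 points, 7 CpGs) 2 forward CpGs gave +5.84 and 5 reverse CpGs -17.9 points. The introns and spacers (-18.7 points) gave -32.8 by medians and -28.1 on both strands averaged. The 3 genes with a fall of at least 20 points became 12 at 10 points, 0 at 30 points and 1 (Pcdhga7) with at least 10 CpGs. Among single parts the sign turned for the beta promoters (-0.86 points, with +5.43 on the reverse strand and +1.51 on both), Pcdha12 (+1.49 by medians), Pcdhga8 (-0.63 by medians), Pcdha8 (-10.2 forward, -6.77 unique) and Pcdhgc3 (+1.33 reverse). The causes were not tested. Constant exons had no value with each region counted once or on both strands. No paired analysis was possible because there is 1 library per karyotype.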
